A study of Homo sapiens with 94 samples.

Results

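EGFR, ERBB2 and ERBB3, with the ligands AREG, EREG, HBEGF, TGFA, BTC and NRG1, make up the EGFR family and ligand genes followed here in tumors given K-975, an inhibitor of the palmitoylation of TEAD, the transcription factors through which YAP1 acts. The 9 genes were taken by symbol from the 20555 entries (20239 gene IDs) of an expression table and gave 10 entries, because NRG1 is listed at 2 loci. RNA-seq was performed on 94 subcutaneous xenografts of NCI-H226, an established human line of malignant pleural mesothelioma with a deletion of NF2, a gene of the Hippo pathway. All tumors, the controls included, therefore stem from 1 cell line and share that deletion. The hosts were female SCID mice (CB17/lcr-Prkdc scid/lcrIcoCrl), 6 to 8 weeks old by the methods of the study, which lack T and B cells. The labels give every tumor an animal number of its own.

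Treated mice received K-975 once by mouth at 30, 100 or 200 mg/kg, in a vehicle of ethanol, Solutol and glucose. Controls received the vehicle alone or nothing. There were 3 studies, which ended 1 h, 3-6 h or 24 h after dosing. In the first and the last, 5 tumors were deposited per dose, with 5 and 4 vehicle tumors. In the study of 3-6 h there were 10 per dose and 10 with vehicle, split into cage groups of 5, of which it is not stated whether they were killed at 3 h or at 6 h. Every study had 5 untreated tumors. Time and study coincide. At 1 h and 24 h each group was a single cage group, so that cage and treatment cannot be told apart. The volume was 20 mL/kg for vehicle and the highest dose, but 10 mL/kg for the lower doses.

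EGFR and its relatives are receptor tyrosine kinases that pair when a ligand binds. EGFR takes AREG, HBEGF, TGFA, BTC and EREG, whereas NRG1 binds ERBB3 and ERBB4. ERBB2 has no known ligand of its own and serves as the partner, and ERBB3, with little kinase activity, passes the signal to PI3 kinase. The ligands are made as membrane proteins and released by proteases such as ADAM10 and ADAM17. Several of these genes, AREG among them, are described elsewhere as targets of YAP1 with TEAD.

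Values are FPKM, fragments per length of transcript and per total of mapped fragments, so they hold no read counts and the number of reads is unknown. How many genes reached an FPKM of 1 stood in for depth. It was 11344 to 11665 in 91 libraries and 702, 7196 and 8531 in the other 3, which are replicate 1 at 30 mg/kg and 24 h, replicate 5 at 100 mg/kg and 24 h, and replicate 1 at 200 mg/kg and 1 h. The 91 libraries are used below, and results with all 94 are given where they differ. A value of 0 does not show that a gene was silent, since POLR2A, a subunit of RNA polymerase II, was listed at 0 in 37 of the 91 libraries. The mesothelial markers were present, with MSLN at a median of 255, CALB2 at 612 and WT1 at 29.1 FPKM, and all 9 had a median of at least 1. Of the squamous epithelial markers, KRT5 was also high (median 878), and KRT6A and KRT14 had medians of 11.1 and 8.77. TP63, SOX2 and DSG3 had a median of 0. Whether host transcripts enter the values is not given in the sources used here, and in bulk tumors fewer cells of a type and less RNA per cell cannot be told apart.

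The receptors were led by EGFR. Its lowest, median and highest FPKM over 91 tumors were 191, 233 and 286. ERBB2 ranged from 17.6 to 40.6 with a median of 26.7, and ERBB3 from 4.75 to 21.9 with a median of 9.55. The ranges of EGFR and ERBB2 did not overlap, and the median of EGFR was 8.73 times that of ERBB2. ERBB4, the fourth receptor of the family, was outside the 9 genes. Transcripts were enriched with capture probes, so that levels of different genes also carry how well their probes capture.

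Among the ligands HBEGF was highest, with a median of 17.6 and a range of 8.46 to 27.2 FPKM. NRG1 followed with a median of 6.06 and a range of 2.05 to 13.4. TGFA had a median of 1.52, was listed at 0 in 11 tumors and reached 7.35. The last 3 ligands were at the floor of the measurement. AREG was listed at 0 in 48 of 91 tumors and reached 1.63. BTC was listed at 0 in 67 and reached 0.475, and EREG was above 0 in a single tumor, at 0.413. By median the order was EGFR, ERBB2, HBEGF, ERBB3, NRG1 and TGFA, and the neighbours below EGFR overlapped in range. ERBB2 exceeded HBEGF in 80 of 91 tumors, HBEGF exceeded ERBB3 in 84, ERBB3 exceeded NRG1 in 70, and NRG1 exceeded TGFA in 86. EGFR also had the lowest spread of the 7 genes tested, with an SD of 0.09 within groups on the log2(FPKM + 1) scale. That SD was 0.25 for ERBB2, 0.27 for HBEGF, 0.32 for AREG, 0.36 for ERBB3 and NRG1 and 0.72 for TGFA. It was not adjusted for level, and EGFR had the highest level.

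**Figure D1:**
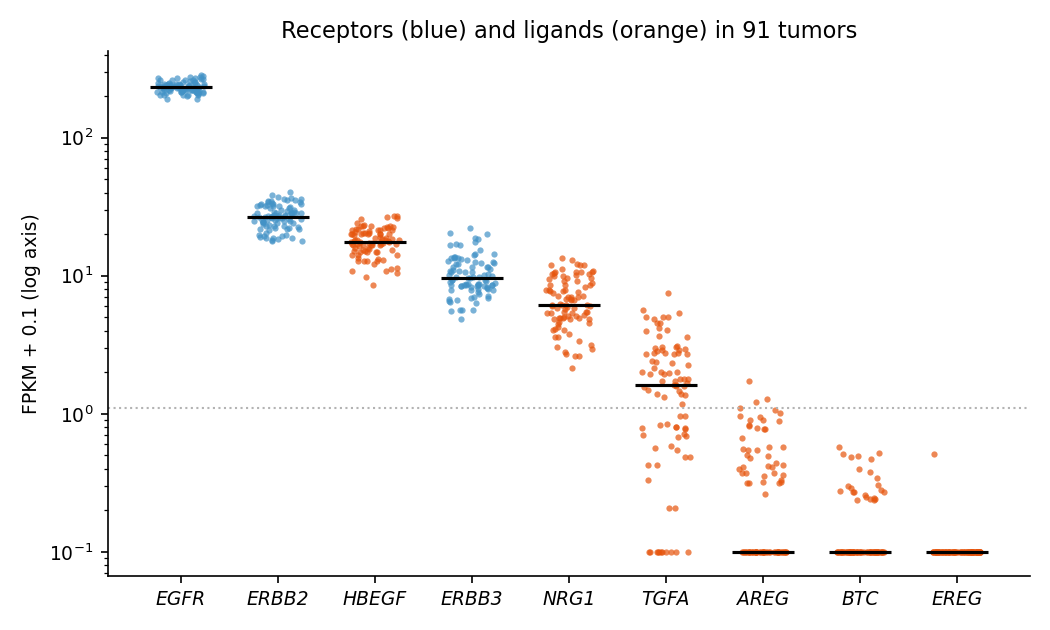
FPKM of the 3 receptors (blue) and the 6 ligands (orange) in 91 tumors, on a log axis after adding 0.1; each point is a tumor, the bar is the median and the dotted line marks an FPKM of 1. EGFR sits between 191 and 286, above every value of the other genes, and AREG, BTC and EREG lie mostly at a listed value of 0.

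The loci of the table match GRCh38, and coordinates here are counted from 1. EGFR (ENSG00000146648.17) lies at chr7:55019021-55211628 on the plus strand, ERBB2 (ENSG00000141736.13) at chr17:39687914-39730426 on the plus strand and ERBB3 (ENSG00000065361.14) at chr12:56079861-56103505 on the plus strand. EREG (chr4:74365143-74388751), AREG (chr4:74445134-74455009) and BTC (chr4:74744759-74794686) are neighbours on chromosome 4, BTC on the minus strand. HBEGF is at chr5:140332843-140346631 and TGFA at chr2:70447280-70554015, both on the minus strand. NRG1 is at chr8:31639755-32767959, and its second entry, at chr8:32171382-32287566 inside the first, was listed at 0 in all 94 libraries and was left out. These spans run over exons and introns of protein-coding genes and equal those of GENCODE 29, except that ERBB3, TGFA and the 2 NRG1 entries cover less of the gene.

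Of the 9 genes, 7 passed the filter on low values, which asked for 1 FPKM or more in 4 or more libraries, and were tested with limma on log2(FPKM + 1). EREG and BTC did not pass. AREG passed with exactly 4 libraries. Before any comparison with K-975, vehicle was set against untreated tumors, and 0 of the 7 passed the threshold (adjusted p under 0.05) in any study by limma, where 0% of all genes were called as well (616, 629 and 547 genes at an unadjusted p under 0.05 at 1 h, 3-6 h and 24 h). At an unadjusted p under 0.05, EGFR at 3-6 h (0.12 on the log2 scale) and TGFA at 24 h (-1.06) were the 2 of 21 such values.

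NRG1 was lower 24 h after 200 mg/kg K-975. In the 4 vehicle tumors NRG1 was at 8.53, 9.09, 11.8 and 6.55 FPKM. In the 5 tumors given 200 mg/kg it was at 2.05, 5.29, 2.52, 5.23 and 2.68 FPKM. Every treated tumor was below every vehicle tumor, and 3 of the 5 treated tumors were at less than 3 FPKM. The 5 untreated tumors of that study, at 6.98, 10.5, 12.8, 6.00 and 9.90 FPKM, were likewise above all 5 treated ones. The means were 3.56 ± 1.58 (SD, n = 5) with 200 mg/kg and 9.00 ± 2.18 (SD, n = 4) with vehicle. NRG1 fell by 1.18 on the log2(FPKM + 1) scale (SE 0.264, 95% interval -1.70 to -0.65, limma adjusted p = 0.00258). It was 1 of 7 family genes called, and 7.41% of the 13036 genes tested were called in this comparison. It was also the only one of the 7 whose groups did not overlap, which held for 7.45% of all genes tested.

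The lower doses at 24 h lay between. With 100 mg/kg NRG1 was at 4.74, 5.33, 4.01 and 7.43 FPKM in the 4 deep libraries, and with 30 mg/kg at 4.41, 6.06, 10.6 and 6.17. In each of these groups 3 of 4 tumors were below all vehicle tumors and 1 was not. The log2 difference from vehicle was -0.65 at 100 mg/kg (limma adjusted p = 0.249) and -0.39 at 30 mg/kg (limma adjusted p = 0.662), neither past the threshold. Over vehicle and the 3 doses in order, NRG1 fell by 0.38 per dose step on the log2 scale (SE 0.0840, limma adjusted p = 0.00205). This trend was called for 1 of the 7 family genes and for 7.11% of all genes.

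The fall of NRG1 moved together with the number of genes detected per library. At 24 h that number was 11356 to 11422 with vehicle and 11424 to 11613 with 200 mg/kg, so that all 5 treated libraries were above all 4 vehicle libraries, while at 100 mg/kg it was 11489 to 11561 and at 30 mg/kg 11448 to 11571. Within groups, over 91 libraries, the deviations of NRG1 from its group mean had a Pearson correlation of -0.51 with those of the number of genes detected, and those of HBEGF -0.48, against -0.06 for EGFR; both measures come from the same library. In a fit with that number as a covariate, added after this correlation had been seen, NRG1 at 200 mg/kg and 24 h differed by -0.53 from vehicle (limma adjusted p = 0.565, unadjusted p = 0.0490) and its trend was -0.17 per dose step (limma adjusted p = 0.545). That fit called 38 of 13036 genes at 200 mg/kg and 24 h, against 966 without the covariate. Because the number was counted after dosing and separated treated from vehicle libraries, this fit cannot tell depth and dose apart. With all 94 libraries the change of NRG1 had the same size, -1.18, but an adjusted p of 0.506 (limma), and no gene of the table passed in that comparison (592 at an unadjusted p under 0.05). The added libraries lie outside the vehicle and 200 mg/kg groups of 24 h, and all groups share an estimate of the spread.

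**Figure D2:**
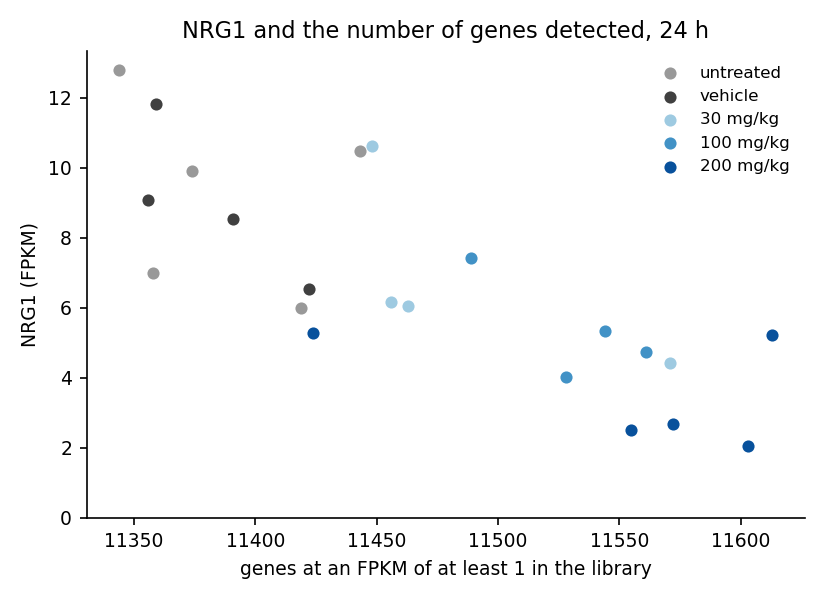
NRG1 in FPKM against how many genes reached 1 FPKM in the same library, for the 22 deep libraries taken at 24 h; each point is a tumor and shades mark the treatment. The 5 tumors at 200 mg/kg, at 2.05 to 5.29 FPKM, lie lower and to the right of the 4 vehicle tumors, at 6.55 to 11.8 FPKM.

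Marker levels by cell type were read at the same time point. The summed FPKM of the 5 leukocyte markers was 146 to 223 with vehicle and 127 to 207 with 200 mg/kg, almost entirely CD68, with CD3E at a median of 0. The 4 endothelial markers summed to 31.0 to 67.8 with vehicle and 26.8 to 92.2 with 200 mg/kg. That sum was almost entirely KDR (median 63.9 over 91 libraries), with PECAM1 at a median of 0, CDH5 at 1.09 and VWF at 0.989. The 3 fibroblast markers summed to 0.414 to 4.87 with vehicle and 0.183 to 2.44 with 200 mg/kg. For the 4 columnar epithelial markers the sums were 15.4 to 19.7 with vehicle and 15.1 to 40.5 with 200 mg/kg. These ranges overlapped. The 6 squamous markers, almost entirely KRT5, summed to 692 to 830 with vehicle and 894 to 1283 with 200 mg/kg, with no overlap. The 9 mesothelial markers summed to 2211 to 2297 and 2341 to 3322, again with all treated libraries above. Of single genes tested, 7.45% did not overlap in this comparison. Both treated sums overlapped with those of the untreated tumors at 24 h, 477 to 1156 (squamous) and 2019 to 2681 (mesothelial). Among the mesothelial markers ITLN1 had the widest range over 91 libraries, 2.99 to 1773 FPKM. The part of these markers in the result on NRG1 was not tested.

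In the study of 3-6 h NRG1 did not pass the threshold at any dose. Its lowest, median and highest FPKM were 2.87, 7.81 and 11.8 in the 10 vehicle tumors and 2.60, 5.30 and 7.01 in the 10 tumors at 200 mg/kg. With 100 mg/kg they were 2.96, 4.18 and 6.66, and with 30 mg/kg 3.94, 5.82 and 8.76. All treated groups overlapped with vehicle. The log2 differences were -0.65, -0.48 and -0.29 for 100, 200 and 30 mg/kg (limma adjusted p = 0.0658, 0.425 and 0.771), so that 0 of 7 family genes passed at any dose, where 0.43%, 0.069% and 0.0153% of all genes were called at 100, 200 and 30 mg/kg.

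The vehicle cage groups at 3-6 h were not alike in NRG1. Cage group 2 was at 2.87, 5.39, 4.88, 5.08 and 9.48 FPKM, and cage group 3 at 7.79, 7.82, 10.6, 10.7 and 11.8. The 2 overlapped only through the tumor at 9.48. Cage group 3 minus cage group 2 gave 0.77 on the log2 scale (SE 0.249, limma adjusted p = 0.172), and 0.33% of all genes were called between these control groups. The effect of 100 mg/kg was -1.04 against cage group 3 alone (limma adjusted p = 0.00982) and -0.26 against cage group 2 alone (limma adjusted p = 0.760). That of 200 mg/kg was -0.86 (limma adjusted p = 0.0573) and -0.092 (limma adjusted p = 0.968) in the same order, and that of 30 mg/kg changed sign against cage group 2 alone, to 0.10. Of the treated cage groups, cage group 7 (100 mg/kg), at 3.26, 4.54, 3.70, 2.96 and 3.95 FPKM, was below both vehicle cage groups together by 0.80 on the log2 scale (limma adjusted p = 0.0350). That was 1 of 7 genes called, where 1.33% of all genes were called. In the other 5 treated cage groups NRG1 differed from vehicle by -0.51 to -0.28, and 0 of 7 family genes passed, where at most 0.276% (cage group 5) of all genes did and 0.0307% did in cage group 9. Cage group 7 against cage group 6, the other group at 100 mg/kg, gave 0 of 7 and 0.046% of all genes. The call was lost with all 94 libraries (limma adjusted p = 1), with only the compared groups in the fit (limma adjusted p = 0.113), with the covariate above (limma adjusted p = 0.175), and in 8 of 15 fits that left out 1 tumor. The adjusted p over those 15 fits was 0.0160 to 0.0948.

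At 1 h no fall was seen. NRG1 was at 2.51, 7.65, 12.1, 4.79 and 11.2 FPKM with vehicle and at 6.94 to 9.57 in the 4 deep libraries of 200 mg/kg. The treated tumors lay inside the range of the vehicle tumors. The log2 differences from vehicle were 0.23, 0.46 and 0.32 for 200, 100 and 30 mg/kg, with limma adjusted p of 1.00, 0.953 and 1.00. Of the 7 family genes 0 passed, where 0%, 0.00767% and 0% of all genes were called (435, 648 and 571 genes at an unadjusted p under 0.05). The effect of 200 mg/kg at 24 h minus that at 1 h was -1.41 for NRG1 (SE 0.374, limma adjusted p = 0.0504), just outside the threshold, where 0.583% of all genes passed and 0 of the 7 family genes did. It passed with a pseudocount of 0.1 (-1.68, limma adjusted p = 0.0413) and after quantile normalization (-1.50, limma adjusted p = 0.0335). It did not pass with all 94 libraries (-1.26, limma adjusted p = 0.825), with only the groups compared (-1.41, limma adjusted p = 0.169), or with the covariate, where it was -0.78 (limma adjusted p = 0.658). Between 24 h and 3-6 h the effect differed by -0.70 (limma adjusted p = 0.243), where 1.72% of all genes passed.

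**Figure D3:**
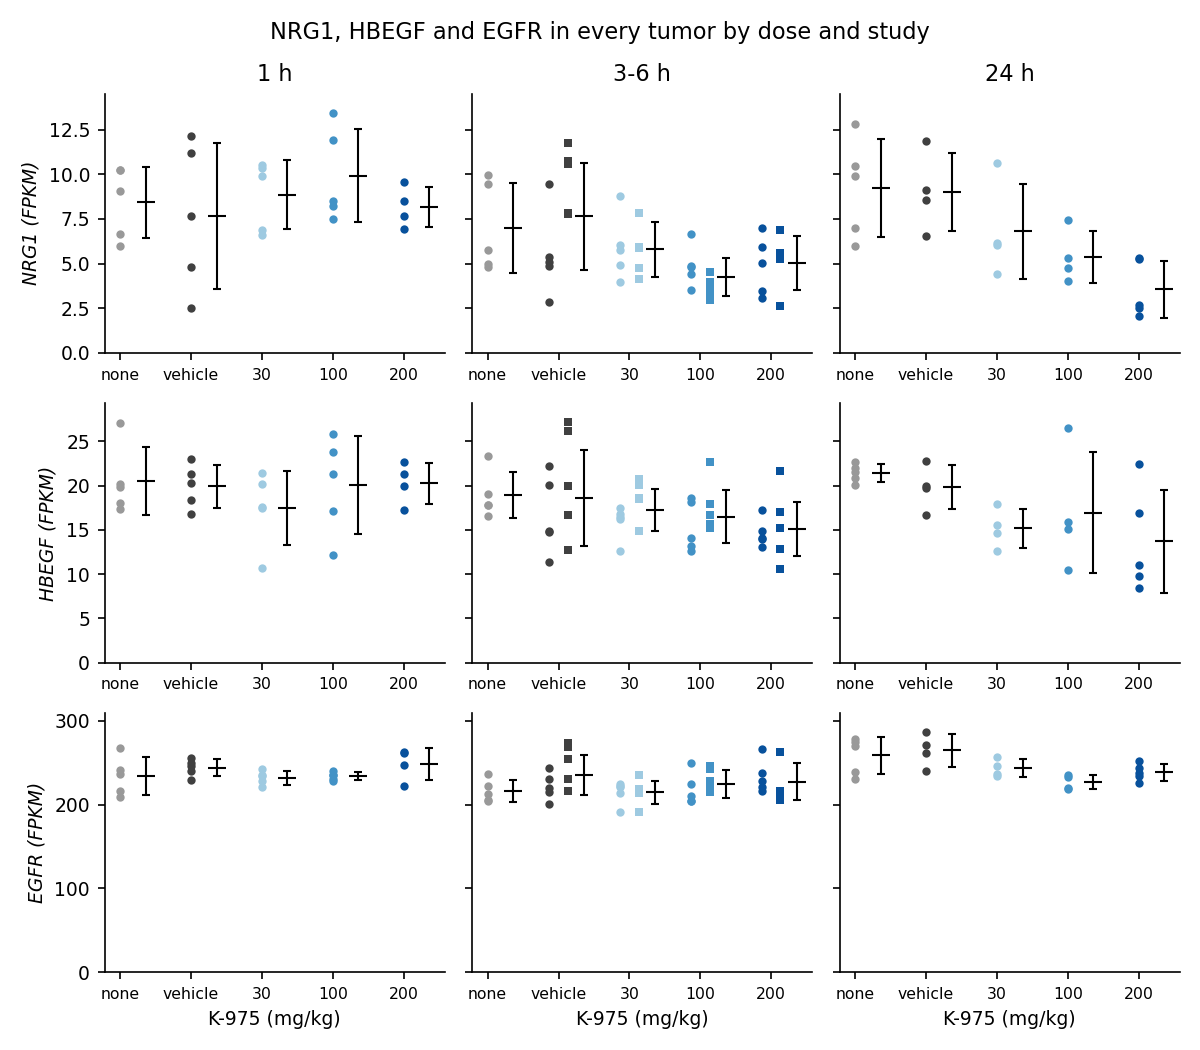
FPKM of NRG1, HBEGF and EGFR in each tumor of the 91 deep libraries, by study (columns) and treatment (none, vehicle, or K-975 in mg/kg); circles and, at 3-6 h, squares are the lower and the higher numbered cage group, and the black marks give the mean and SD. NRG1 at 24 h steps down with dose from a mean of 9.00 with vehicle to 3.56 at 200 mg/kg, while EGFR stays between 191 and 286 in all panels.

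HBEGF, which binds EGFR and is also known as the receptor of diphtheria toxin, did not pass the threshold. At 24 h it was at 20.0, 19.8, 22.8 and 16.7 FPKM with vehicle and at 8.46, 22.4, 9.75, 16.9 and 11.0 with 200 mg/kg. Replicates 1, 3 and 5 at 200 mg/kg were below all vehicle tumors and replicates 2 and 4 were within their range. The log2 difference was -0.58 (SE 0.200, 95% interval -0.98 to -0.18, limma adjusted p = 0.0604). It was past the threshold against the untreated tumors of the same study (-0.69, limma adjusted p = 0.0132), whose values lay between 20.1 and 22.6. It was also past it after quantile normalization (-0.61, limma adjusted p = 0.0450), without replicate 2 (-0.77, limma adjusted p = 0.00681) or without replicate 4 (-0.67, limma adjusted p = 0.0423) of the 200 mg/kg group. HBEGF was not past it with all 94 libraries, with only the groups compared (limma adjusted p = 0.192) or with the covariate (-0.11, limma adjusted p = 0.925). Of 9 fits that left out 1 tumor 2 passed, and the highest limma adjusted p was 0.242. The same replicates 1, 3 and 5 were the ones in which NRG1 was at less than 3 FPKM. At 100 and 30 mg/kg the difference at 24 h was -0.28 and -0.36, with limma adjusted p of 0.594 and 0.576. At 3-6 h it was -0.26 at 200 mg/kg (limma adjusted p = 0.697), and at 1 h 0.02.

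EGFR did not pass in any comparison. At 24 h it was at 261, 271, 240 and 286 FPKM with vehicle, at 226, 233, 237, 243 and 252 with 200 mg/kg, and at 235, 220, 233 and 219 with 100 mg/kg. All 4 tumors at 100 mg/kg were below all vehicle tumors, which held for 1 of the 7 family genes in that comparison and for 7.16% of all genes tested. At 200 mg/kg 3 of 5 were below. The difference from vehicle was -0.22 for 100 mg/kg (95% interval -0.37 to -0.07, limma adjusted p = 0.121), -0.15 at 200 mg/kg (95% interval -0.29 to -0.01, limma adjusted p = 0.189) and -0.12 at 30 mg/kg (limma adjusted p = 0.598) on the log2 scale. For the same doses, 1.12%, 7.41% and 0.0384% of all genes were called. At 3-6 h and 1 h its 6 differences from vehicle lay between -0.13 and 0.02.

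The other receptors gave intervals that span 0 at 24 h. ERBB2 was at 26.8, 26.9, 21.7 and 24.4 FPKM with vehicle and at 35.8, 31.4, 26.3, 27.2 and 17.6 with 200 mg/kg, so that 3 of the treated tumors were above and 1 was below all vehicle tumors. Its log2 difference was 0.11 (95% interval -0.25 to 0.48, limma adjusted p = 0.777). At 3-6 h the difference of ERBB2 was 0.27, 0.21 and 0.17 at 100, 200 and 30 mg/kg (limma adjusted p = 0.419, 0.750 and 0.813). ERBB3 was at 6.97, 13.3, 9.21 and 4.75 FPKM with vehicle and at 9.82, 9.75, 5.57, 9.75 and 7.78 with 200 mg/kg at 24 h, entirely within the range of vehicle. Its log2 difference was 0.05 (95% interval -0.47 to 0.58, limma adjusted p = 0.942). At 1 h ERBB3 gave its largest difference, -0.51 at 200 mg/kg (limma adjusted p = 1.00), where a vehicle tumor at 21.9 FPKM stood above the other 4, at 8.43 to 11.5.

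TGFA and AREG were too low for firm statements. TGFA at 24 h was at 0.109, 0, 0.481 and 0.445 FPKM with vehicle and at 0.323, 0.323, 2.59, 1.68 and 0.382 with 200 mg/kg, with 2 treated tumors above all vehicle tumors. The log2 difference of 0.60 had a 95% interval of -0.44 to 1.64 (limma adjusted p = 0.547). Against untreated tumors of that study, at 3.93, 4.95, 0, 0 and 2.94 FPKM, the sign turned, to -0.46 (limma adjusted p = 0.624). AREG at 24 h was at 0, 0.843, 0.299 and 1.63 FPKM with vehicle and at 0, 0.271, 0.449, 0 and 0.322 with 200 mg/kg, a log2 difference of -0.41 (95% interval -0.89 to 0.08, limma adjusted p = 0.331). BTC was listed at 0 in 3 of 4 vehicle tumors and 2 of 5 tumors at 200 mg/kg, and EREG in all of them.

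**Figure D4:**
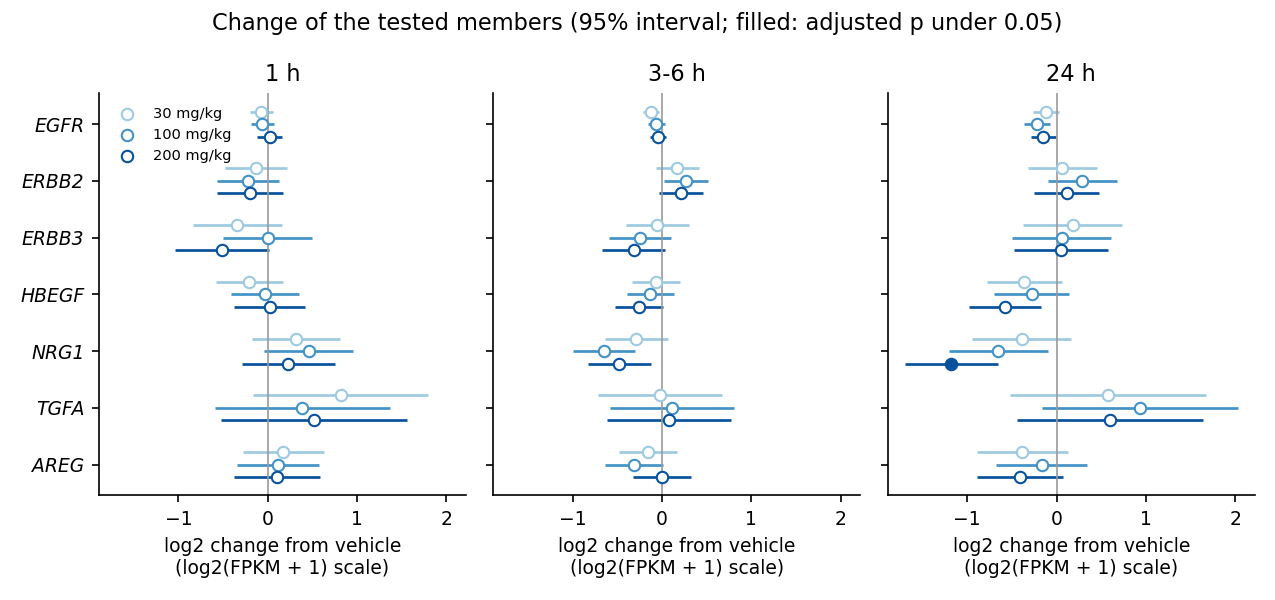
Log2 change from vehicle, on the log2(FPKM + 1) scale, of the 7 tested genes at 1 h, 3-6 h and 24 h for 30, 100 and 200 mg/kg K-975 (light to dark); bars are 95% intervals of the limma fit and filled points have an adjusted p under 0.05. The single filled point is NRG1 at 200 mg/kg and 24 h, at -1.18.

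With all 94 libraries, the 30 mg/kg group at 24 h gained the library with 702 genes, in which EGFR, HBEGF and NRG1 were all listed at 0 and ERBB2 at 1310 FPKM. In that fit EGFR (-1.70), HBEGF (-1.16) and NRG1 (-0.97) passed the threshold (limma adjusted p = 0.0410, 0.0410 and 0.0421), as did 22.7% of all genes, whose median change was -0.65. Without that library the values were -0.12, -0.36 and -0.39 and 0 of 7 passed.

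The other genes of the pathway were taken from lists by role, and their counts at 24 h stand against 7.41%, 1.12% and 0.0384% of all genes called at 200, 100 and 30 mg/kg. Of 4 genes of ligand shedding tested, 0 were called at any dose at 24 h, and at 200 mg/kg their log2 differences ran from -0.10 to 0.16. ADAM10, the sheddase with the higher level of ADAM10 and ADAM17, passed at 100 mg/kg and 3-6 h only, with a mean of 664 FPKM (n = 10) against 767 (n = 10) for vehicle, where 0.43% of all genes were called, and a 95% interval of -0.30 to -0.11 for the log2 difference. ADAM10 fell by 0.20 on the log2 scale (limma adjusted p = 0.0280), with 3 of 10 tumors below all vehicle tumors.

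In the signal relay from receptor to nucleus, 21 genes were tested, and at 200 mg/kg and 24 h 1 was higher and 1 lower, near the 7.41% of all genes called, with a median log2 difference of -0.02 against 0.04 for all genes. MAP2K1, which encodes the kinase MEK1 upstream of ERK, was at 27.0, 27.0, 27.7 and 30.3 FPKM with vehicle and at 15.8, 22.9, 20.5, 20.2 and 18.0 with 200 mg/kg. Every treated tumor was below every vehicle tumor, and 7.45% of all genes tested did not overlap. MAP2K1 fell by 0.51 on the log2 scale (limma adjusted p = 0.00802), and at 100 mg/kg by 0.52 (limma adjusted p = 0.0361), again with all 4 treated tumors below, where 7.16% of all genes did not overlap. PLCG1, the phospholipase that receptors of this family activate, rose by 0.56 (limma adjusted p = 0.0351). It was at 29.0, 21.4, 22.7 and 30.7 FPKM with vehicle and at 30.3, 39.8, 39.5, 39.7 and 43.4 with 200 mg/kg, with 4 of 5 above all vehicle tumors. The untreated tumors of that study were at 26.4, 24.3, 40.8, 30.4 and 20.0 FPKM, so that PLCG1 overlapped between untreated and treated tumors. MAP2K2, which encodes MEK2, differed by -0.003 (limma adjusted p = 0.988).

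Of 13 receptor inhibitors and feedback genes, 0 were called at any dose at 24 h, where 7.41% of all genes were called at the highest dose. The lowest adjusted p at 200 mg/kg was that of DUSP5, an ERK phosphatase, at -0.97 on the log2 scale (limma adjusted p = 0.0836). ERRFI1, which binds and inhibits the EGFR kinase, differed by -0.86 (limma adjusted p = 0.228), and 4 of 13 had a positive sign. Of 9 early output genes of the ERK pathway 0 were called either, and at a share of 7.41% counts of 0 among so few genes set no list apart. FOSL1, a subunit of AP-1, differed by -1.26 at 200 mg/kg (limma adjusted p = 0.0591), with a mean of 65.5 against 127 FPKM, and 8 of 9 had a negative sign, with a median of -0.23. Of the 4 tested family members outside the 9 genes (ERBB4, EGF, EPGN and NRG2), all with a positive sign at 200 mg/kg, 0 were called. NRG2, another neuregulin, was above all vehicle tumors in 5 of 5 tumors, where 7.45% of all genes did not overlap. Its mean was 0.878 against 0.247 FPKM (log2 difference 0.54, limma adjusted p = 0.132). Both means were under 1 FPKM, so that NRG2, like TGFA and AREG, was too low for firm statements. As a reference for TEAD output, CCN1 fell by 1.26 and CCN2 fell by 1.44 on the log2 scale at 200 mg/kg and 24 h (limma adjusted p = 1.23e-05 and 2.11e-06). The libraries added in the fit of all 94 lie outside the groups of the next comparisons. With all 94 libraries the fold changes given here for ADAM10 at 3-6 h and for MAP2K1, PLCG1, CCN1 and CCN2 at 200 mg/kg and 24 h were the same but none passed, with limma adjusted p from 0.147 (CCN2) to 1. These genes were not refitted with the covariate.

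Tumors of the same group also differed from each other, and these deviations were compared over 91 libraries. The highest correlation between 2 of the 7 genes was that of HBEGF with NRG1 (Pearson r = 0.47), and the lowest that of EGFR with ERBB2 (r = -0.29). Over all genes tested, NRG1 was most like ANLN (r = 0.70), PPME1 (r = 0.69) and KIF23 (r = 0.69), of which ANLN and KIF23 serve in cytokinesis. HBEGF was most like GADD45A (r = 0.73), BUB1 (r = 0.71) and PFN1 (r = 0.70), and EGFR most like SLC39A14 (r = 0.71), CFB (r = 0.69) and SLC11A2 (r = 0.68), both SLC genes being metal ion transporters. The correlations of ERBB2, ERBB3, AREG and TGFA with their most similar gene were 0.50, 0.49, 0.44 and 0.41. All of these are descriptions, since the points share libraries and their depth.

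Promoters were examined because K-975 acts on TEAD proteins, which bind GGAATG. RefSeq promoters (GRCh38.p14, 250 bases before to 50 after a start) were examined for AREG, BTC, EGFR, ERBB2, EREG, HBEGF and TGFA. NRG1 was left out of this search, so its promoters were not examined, and no promoter was matched for ERBB3. GGAATG on either strand (CATTCC on the other) occurs in 14.0% of the 35116 promoters of that table, and the AP-1 motif TGANTCA, which reads the same on both strands, in 7.71%. Neither motif overlaps the other in the sequences shown. The TEAD hexamer was found in the promoter of EREG, at position -175 from the start, and in that of a start of EGFR inside the gene, at position -114, which also holds 2 AP-1 motifs. The promoter at the first EGFR start holds neither, nor do those of HBEGF, AREG, BTC and TGFA, while that of ERBB2 holds 1 AP-1 motif. The 2 promoters with the hexamer are shown beside that of CCN2, which holds it 3 times, with both motifs in capitals.
EREG, chr4:74364895-74365194, plus strand: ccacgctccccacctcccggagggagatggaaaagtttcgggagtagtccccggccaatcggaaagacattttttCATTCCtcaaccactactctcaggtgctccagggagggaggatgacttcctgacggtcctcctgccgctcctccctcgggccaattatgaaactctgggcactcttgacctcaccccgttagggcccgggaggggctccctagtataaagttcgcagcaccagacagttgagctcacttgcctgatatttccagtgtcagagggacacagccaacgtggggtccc
EGFR inner start, chr7:55109589-55109888, plus strand: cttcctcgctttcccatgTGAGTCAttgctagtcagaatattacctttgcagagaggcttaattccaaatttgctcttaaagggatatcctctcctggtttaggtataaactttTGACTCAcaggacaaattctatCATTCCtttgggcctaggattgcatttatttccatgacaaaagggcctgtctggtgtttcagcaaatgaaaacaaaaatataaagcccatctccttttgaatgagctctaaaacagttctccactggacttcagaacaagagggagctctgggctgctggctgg
CCN2, chr6:131951323-131951622, minus strand: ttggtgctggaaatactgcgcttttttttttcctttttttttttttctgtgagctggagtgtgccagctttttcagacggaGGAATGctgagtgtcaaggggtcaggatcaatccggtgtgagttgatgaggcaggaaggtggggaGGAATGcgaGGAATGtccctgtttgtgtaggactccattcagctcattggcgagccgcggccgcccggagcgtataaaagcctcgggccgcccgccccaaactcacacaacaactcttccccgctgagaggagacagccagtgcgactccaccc
A match of these letters is a description and not a bound site. EREG, with the hexamer, was above 0 in 1 of 91 tumors and was not tested. EGFR, with the hexamer at the inner start only, was not called at any dose. NRG1, the only family gene called against vehicle, was outside the search, so that motif and response cannot be set against each other.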

How the data were processed

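Tumor RNA was made into libraries with the KAPA RNA HyperPrep kit, enriched with KAPA HyperCap probes and sequenced. The values the authors deposited are FPKM, 1 column per library. Per the submitters' processing notes, reads were aligned with STAR to GRCh38. Versions, the quantifier, the annotation release and the handling of mouse reads are not given in the sources used here. FPKM is scaled to the library total, so a library in which few genes were detected gives high values for those that remain.

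Blank cells (32 in 21 genes) were read as 0, and 316 further entries of 284 gene IDs were left out. Starts in the table count from 0: 15647 of 20516 entries found in GENCODE 29 were identical after adding 1. Per-library columns not used numbered 0. Groups came from the labels. limma 3.58.1 (R 4.3.3) was fitted to log2(FPKM + 1) with 1 coefficient for each of 19 groups, trend and robust moderation, over the 13036 genes that reached 1 FPKM in 4 or more of the 91 libraries in which 10000 or more genes did so (13041 with 94). This scale understates changes of low genes. The Benjamini-Hochberg adjustment ran over all genes within a comparison, with a threshold of 0.05. There were 28 comparisons: 9 of a dose with vehicle, 3 of vehicle with untreated, 3 trends (weights -3, -1, 1, 3, given per dose step), 3 differences of the effect of 200 mg/kg between studies, and 10 of cage groups. The doses of a study share vehicle tumors. The script was tested on simulated data.

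The genes followed, the lists and the limit of 10000 genes were chosen with earlier results of these data known. Named were all 9 family genes and, of the other lists, those past the threshold in a comparison with vehicle (at most 4 per list), with CCN1 and CCN2 for reference. Those named without passing (MAP2K2, DUSP5, ERRFI1, FOSL1, NRG2) were chosen after their values were seen. For each tested family gene the 3 genes of highest within-group correlation were taken. CCN1 and CCN2 stand in the table under older symbols. Alternatives were the 94 libraries, a pseudocount of 0.1, no filter, quantile normalization, only the groups compared, plain moderation, untreated controls, each vehicle cage group alone, leaving out each of 91 tumors in turn and, added later, the number of genes detected as a covariate.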

Additional observations from a re-analysis of the deposited data

Results flagged for a closer look

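In 132 sets of 4 or 5 tumors of 1 group and 1 family gene, the highest or lowest tumor was compared with its nearest neighbour. In 11 sets it stood apart by Dixon's criterion, where chance alone gives about 1 in 20 for normally distributed values. Where all other tumors are listed at 0, any value above 0 stands apart by this rule, so that rate does not apply. AREG, listed at 0 in all other tumors of its group, was at 0.216 FPKM in replicate 3 of cage group 6 (100 mg/kg, 3-6 h), at 1.18 in replicate 3 at 30 mg/kg and 24 h, at 0.404 in replicate 4 of cage group 8 (30 mg/kg, 3-6 h) and at 0.970 in replicate 1 of vehicle at 1 h. EGFR was at 263 FPKM in replicate 2 of cage group 5 (200 mg/kg, 3-6 h), where the next was 216. ERBB2 was lowest in replicate 5 of cage group 7 (100 mg/kg, 3-6 h), at 21.8 against 33.1. ERBB3 was at 21.9 in replicate 3 of vehicle at 1 h, where the next was 11.5, and at 11.1 in replicate 1 of the untreated tumors at 1 h, where the next was 9.16. HBEGF was lowest in replicate 1 of cage group 8, at 12.6 against 16.3. TGFA was at 5.25 in replicate 1 of cage group 6, where the next was 1.58, and was listed at 0 in replicate 2 of vehicle cage group 3, where the next was 2.59. None of these tumors belongs to the comparison of 200 mg/kg with vehicle at 24 h.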

How the results depend on the processing

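Of 211 recomputed counts of family genes past the threshold, 198 kept the count, and of 280 recomputed values of single genes, 251 kept direction and call. The cause of the changes below was not tested. With all 94 libraries the count was 0 at 200 mg/kg and 24 h, for the trend at 24 h and for cage group 7, and 3 at 30 mg/kg and 24 h, and the EGFR trend at 24 h turned to 0.0738. With the number of genes detected as covariate the count was 0 in the same first 3 comparisons, and HBEGF at 100 mg/kg (0.13 at 24 h, 0.00638 at 3-6 h) and ERBB2 at 200 mg/kg and 24 h (-0.0629) turned. Quantile normalization and untreated controls each gave a count of 2 at 200 mg/kg and 24 h, with HBEGF added. The difference of the effect of 200 mg/kg between 24 h and 1 h had a count of 1 with a pseudocount of 0.1 and with quantile normalization. Cage group 7 had 0 with only the groups compared, and 100 mg/kg at 3-6 h had 1 with vehicle cage group 3 alone. Signs that turned were, with quantile normalization, ERBB3 at 200 mg/kg and 24 h (-0.00938). With untreated controls they were NRG1 at 200 mg/kg and 1 h (-0.0214), EGFR at 100 and 200 mg/kg and 3-6 h (0.0546 and 0.0704), and at 24 h ERBB2 (-0.0587) and TGFA (-0.46). With vehicle cage group 2 alone they were NRG1 at 30 mg/kg (0.10), HBEGF at 100 mg/kg (0.00485) and EGFR at 100 and 200 mg/kg (0.0177 and 0.0335). None of these values passed the threshold.

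Leaving out 1 tumor at a time, the NRG1 change at 200 mg/kg and 24 h ran from -1.31 to -1.05 (limma adjusted p 0.000728 to 0.0255) and passed in all 9 fits, and its trend at 24 h from -0.42 to -0.34 in all 17. The count of family genes ran from 1 to 2 in both, since HBEGF passed the trend without replicate 2 at 200 mg/kg (-0.22, limma adjusted p = 0.0142) or replicate 4 at 100 mg/kg (-0.19, limma adjusted p = 0.0418). It ran from 0 to 1 for 24 h minus 1 h, where NRG1 passed without vehicle replicates 2, 3 or 5 at 1 h, vehicle replicate 4 at 24 h or replicates 2 or 4 at 200 mg/kg and 24 h (lowest limma adjusted p = 0.0157). It also ran from 0 to 1 at 100 mg/kg and 3-6 h, where NRG1 passed without vehicle cage group 2 replicate 1 (limma adjusted p = 0.0244) or cage group 6 replicate 5 (limma adjusted p = 0.0479), and for cage group 7. That call was lost without replicate 5 of vehicle cage group 2, replicates 3, 4 or 5 of vehicle cage group 3, or replicates 1, 3, 4 or 5 of cage group 7. NRG1 at 200 mg/kg and 1 h ran from -0.0523 to 0.42 and its trend at 1 h from -0.00168 to 0.14, the sign turning without vehicle replicate 1. ERBB3 at 200 mg/kg and 24 h ran from -0.17 to 0.27, turning below 0 without vehicle replicate 1, vehicle replicate 4 or replicate 1 at 200 mg/kg. Depth in reads is unknown, so values of 0 cannot be read as absence. No paired analysis was possible because the labels give no replicate numbers that pair tumors across groups.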
